A study of Homo sapiens with 6 samples.

Results

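The 10 genes described here are the Notch receptors NOTCH1, NOTCH2 and NOTCH3, the ligands JAG1, JAG2, DLL1 and DLL3, and the target genes HES1, HES4 and HEY1. They were chosen by gene symbol, and all 10 were found among the 60483 genes of the count table and passed the filter on low counts. RNA was sequenced from A2780 cells, a human ovarian carcinoma line (WT, 3 libraries), and from a CDK12 KO clone made from the same line (3 libraries). The clone was obtained by CRISPR/Cas9 editing of exon 1 of CDK12, a kinase of RNA polymerase II, and the labels name no drug for either group. The knockout is a single clone isolated after a second round of editing, so clone and genotype cannot be told apart. The study also describes its chromosome set as duplicated, and counts scaled to a library's total do not measure RNA per cell. Fewer cells of a type and less RNA per cell cannot be told apart in bulk libraries either.

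Notch receptors are single-pass membrane proteins that bind Jagged and Delta-like ligands on neighbouring cells. Ligand binding exposes the receptor to ADAM proteases and then to γ-secretase, which frees the intracellular domain. That domain enters the nucleus, joins the DNA-binding protein RBPJ and a Mastermind co-activator, and switches on target genes, of which the HES and HEY repressors are the best known. In ovarian carcinoma the pathway has been studied for its part in tumour growth and stemness.

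Total counts lay between 11098400 and 30899045 per library, and the lowest total was that of WT replicate 3. Levels are given as CPM, counts relative to the TMM-scaled library total, and as CPM per kb of exon where different genes are compared. In single libraries 3 counts corresponded to 0.10 to 0.270 CPM, a floor that covers counting error only. CDK12 itself was at 115 ± 11.1 CPM in WT and 98.0 ± 4.64 CPM in CDK12 KO (SD, n = 3 each), and gene counts do not tell edited from unedited transcripts. Of 6 markers of ovarian carcinoma or epithelium, KRT8, KRT18 and EPCAM were counted in every library, while PAX8 and the gene WT1 had at most 6 counts and MUC16 at most 1 in any library. The fibroblast markers COL1A1 and COL1A2 were abundant, and the summed level of the 4 fibroblast markers was 5139 to 5271 CPM in WT and 2677 to 2811 CPM in CDK12 KO. Nearly all of this sum was COL1A2 and COL1A1. The fibroblast markers DCN and LUM averaged only 0.757 and 0.613 CPM in WT and had 0 counts in every CDK12 KO library. The 4 endothelial markers summed to at most 0.892 CPM and the 4 leukocyte markers to at most 0.401 CPM in any library. The part of these marker differences in the results below was not tested.

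In CDK12 KO cells, NOTCH1 and DLL1 were up-regulated, and HES1 and HES4 were down-regulated, where a call needed an adjusted p under 0.05 in edgeR's quasi-likelihood test together with a fold past 1 or -1 on the log2 scale. The log2 fold change of CDK12 KO over WT is written log2FC below, and SE is its fitted error. These 4 of 10 genes stand beside 16.0% of the 16198 genes tested, with 8.30% called up and 7.73% called down. At the adjusted p alone, 5 of the 10 genes rose and 4 fell, against 31.9% and 32.0% of all genes tested, or 63.9% in either direction. The CDK12 KO values lay entirely above the WT values for 5 of the 10 genes and entirely below for 4, against 32.8% and 33.5% of all genes tested, or 66.4% in either direction. The genes were chosen by name, with earlier results of these data known. With only 10 genes and most of the transcriptome moving, these counts are given without a test. The median log2FC was 0.23 over the 10 genes and 0.00044 over all genes tested. In the exact permutation test, two-sided, each of the 9 genes with separate groups had p = 0.1, the smallest that 3 libraries against 3 allow.

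Among the receptors, NOTCH1 (ENSG00000148400, chromosome 9 from 136494433 to 136546048, minus strand) was the one that was up-regulated. It was at 34.2, 37.2 and 42.0 CPM in the WT libraries and at 77.1, 77.7 and 80.2 CPM in the CDK12 KO libraries. Every CDK12 KO library was well above the highest WT library. The log2FC was 1.07 (SE 0.0606, adjusted p = 1.63e-16 from edgeR), a 2.10-fold rise. This lies close to the fold threshold: without WT replicate 1, which had the lowest NOTCH1 level of the group, the log2FC was 0.999 and the gene was no longer called up-regulated, although its adjusted p stayed at or below 1.84e-12 with any library left out.

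NOTCH3 (ENSG00000074181, chromosome 19), a receptor best known from vascular smooth muscle and amplified in some ovarian carcinomas, rose less. Its WT libraries were at 78.7, 93.6 and 86.5 CPM and its CDK12 KO libraries at 115, 112 and 112 CPM. The groups did not overlap, and the log2FC was 0.39 (SE 0.0551, adjusted p = 2.81e-07, edgeR). NOTCH2 (ENSG00000134250, chromosome 1) moved the other way, from 129, 156 and 142 CPM in WT to 124, 116 and 126 CPM in CDK12 KO. The gap between the groups was narrow here, with WT replicate 1 lying just above the highest CDK12 KO library. The log2FC of NOTCH2 was -0.22 (SE 0.0564, adjusted p = 8.87e-04, edgeR). NOTCH2 has near-identical partial copies, the NOTCH2NL genes. Of 5 copies or pseudogenes in the annotation, 2 were listed in the count table, NOTCH2NLA with 31 counts over all 6 libraries and NOTCH2P1 with 0. How reads shared with the copies were treated is not given in the sources used here, so the NOTCH2 values are uncertain to that extent.

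Per kb of exon, NOTCH3 and NOTCH2 were the leading receptors in WT, at 9.17 ± 0.794 and 8.5 ± 0.792 CPM per kb (SD, n = 3 each), and these neighbours in the order differed by less than their spread. NOTCH1 followed at 3.01 ± 0.314 CPM per kb. In CDK12 KO the levels were 12 ± 0.157 for NOTCH3, 7.29 ± 0.323 for NOTCH2 and 6.25 ± 0.130 CPM per kb for NOTCH1 (SD, n = 3 each). The NOTCH1 share of the summed level of these receptors was 14.5%, 13.4% and 15.9% in the WT libraries and 23.9%, 24.8% and 24.8% in the CDK12 KO libraries. The share of NOTCH2 was 41.1% ± 0.767 in WT and 28.5% ± 0.819 in CDK12 KO, and that of NOTCH3 was 44.3% ± 0.529 and 47.0% ± 0.847 (SD, n = 3 each). The receptor RNA of the CDK12 KO libraries thus held more NOTCH1 and less NOTCH2, while their summed level was 20.7 ± 1.73 CPM per kb in WT and 25.5 ± 0.409 CPM per kb in CDK12 KO. These shares are given as a description, without a test.

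**Figure D1:**
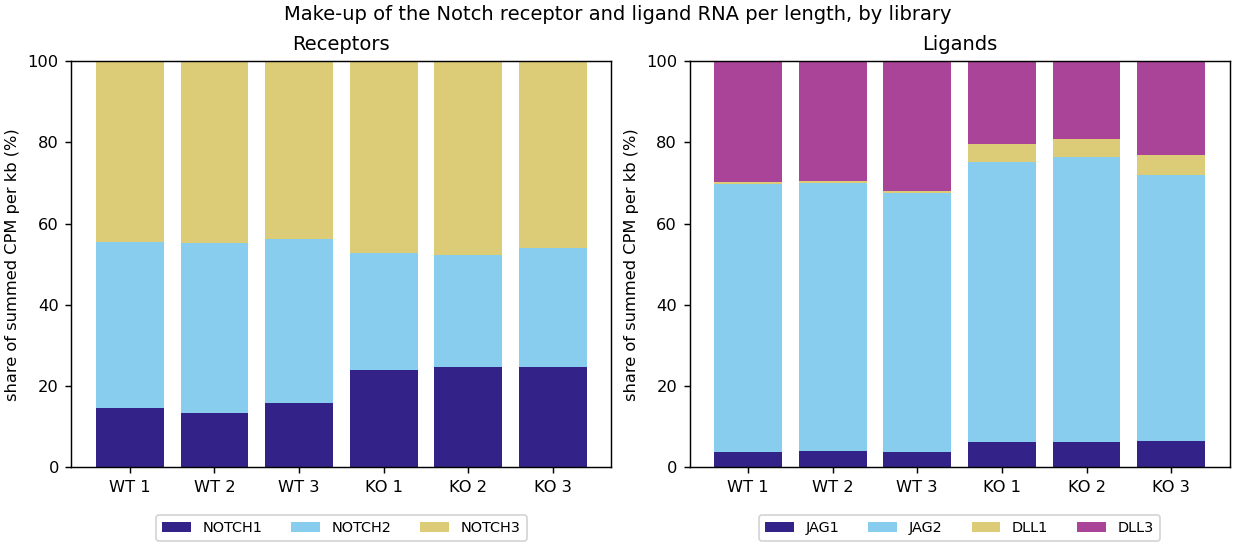
Share (%) of each of the 3 chosen receptors (left) and 4 chosen ligands (right) in their summed CPM per kb, one stacked bar per library. NOTCH1 took 13.4% to 15.9% of receptor RNA in WT and 23.9% to 24.8% in CDK12 KO, and JAG2 made up most of the ligand RNA in each library.

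Of the ligands, DLL1 (ENSG00000198719, chromosome 6 from 170282206 to 170306565, minus strand), a Delta-like protein that activates receptors on adjacent cells, changed most. It was counted only 4, 6 and 2 times in the WT libraries, against 37, 42 and 27 times in the CDK12 KO libraries. In CPM these were 0.146, 0.200 and 0.180 in WT, close to the level of 3 counts, and 1.51, 1.56 and 1.52 in CDK12 KO. All CDK12 KO libraries were far above all WT libraries. The log2FC was 3.09 (SE 0.332, adjusted p = 1.14e-09, edgeR). With so few WT reads, the ratio of summed counts after scaling was 8.73, with a 95% exact interval from counting error of 4.79 to 17.4. DLL1 overlaps FAM120B, which lies on the opposite strand and had 4793 counts in all. The libraries were prepared with a kit that keeps strand, but the strand setting of the counting is not given in the sources used here. FAM120B had a log2FC of 0.16 (adjusted p = 0.0419, edgeR), and the log2FC kept its sign in all 13 alternative settings, from 0.10 to 0.22, while the adjusted p missed 0.05 in 7 of them.

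JAG1 (ENSG00000101384, chromosome 20), a Jagged ligand mutated in Alagille syndrome, was at 3.10, 3.07 and 3.15 CPM in WT and at 5.13, 5.46 and 4.89 CPM in CDK12 KO. The WT libraries were nearly equal and all lay below the CDK12 KO libraries. Its log2FC was 0.74 (SE 0.136, adjusted p = 1.69e-05, edgeR), short of the fold threshold. JAG2 (ENSG00000184916, chromosome 14) was the member whose groups overlapped, with 37.0, 35.3 and 35.6 CPM in WT and 38.7, 41.7 and 33.4 CPM in CDK12 KO. Its log2FC of 0.08 (SE 0.0673, adjusted p = 0.281, edgeR) did not pass the test. CDK12 KO replicate 3 gave its lowest value, and without that library the log2FC was 0.16 (adjusted p = 0.0420, edgeR).

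DLL3 (ENSG00000090932, chromosome 19) differs from the other ligands in that it does not activate receptors on neighbouring cells and is held largely inside the cell, where it can inhibit Notch. It fell, from 6.82, 6.47 and 7.29 CPM in WT to 4.68, 4.68 and 4.83 CPM in CDK12 KO. The CDK12 KO libraries were almost the same as each other and all were below WT. The log2FC was -0.52 (SE 0.117, adjusted p = 2.59e-04, edgeR). DLL3 thus fell where the activating ligands DLL1 and JAG1 rose. The activating ligands JAG2 and DLL4 had log2FC values of 0.08 and -0.0029 and did not pass the test.

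The order of the 4 chosen ligands per kb of exon was JAG2, DLL3, JAG1 and DLL1 in both groups, and no neighbours in this order came within their spread. DLL4, left out of this order and of the sums below, was at 0.320 CPM per kb in WT and 0.323 CPM per kb in CDK12 KO. JAG2 was at 5.62 ± 0.138 CPM per kb in WT and 5.93 ± 0.653 CPM per kb in CDK12 KO, and DLL1 at 0.0459 ± 0.00718 and 0.400 ± 0.00752 CPM per kb (SD, n = 3 each). DLL1 made up 0.534% ± 0.0947 of the summed level of the 4 chosen ligands in WT and 4.62% ± 0.308 in CDK12 KO, and DLL3 30.4% ± 1.32 and 20.9% ± 1.99 (SD, n = 3 each). JAG1 went from 3.88% ± 0.0655 to 6.39% ± 0.162. The share of JAG2 was 65.2% ± 1.32 in WT and 68.1% ± 2.44 in CDK12 KO, a difference that turned round without division by exon length, with 78.0% in WT and 76.8% in CDK12 KO. On that scale DLL3 took 14.9% in WT and 9.65% in CDK12 KO, JAG1 6.74% and 10.5%, and DLL1 0.381% and 3.11%, so the order of DLL3 and JAG1 in CDK12 KO depended on the division by length. The summed level of these ligands was 8.62 ± 0.210 CPM per kb in WT and 8.69 ± 0.657 CPM per kb in CDK12 KO, and the groups overlapped.

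The target genes encode basic helix-loop-helix proteins that repress transcription, and HES1 is the member most widely used as a readout of Notch activity. HES1 (ENSG00000114315, chromosome 3 from 194136148 to 194138732, plus strand) was counted 714, 639 and 285 times in WT and 137, 160 and 63 times in CDK12 KO. The levels were 26.1, 21.3 and 25.7 CPM in WT and 5.58, 5.94 and 3.54 CPM in CDK12 KO. The highest CDK12 KO library was far below the lowest WT library. The log2FC was -2.22 (SE 0.114, adjusted p = 1.03e-17, edgeR), a 4.67-fold lower level.

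HES4 (ENSG00000188290, chromosome 1 from 998962 to 1000172, minus strand), a close relative of HES1, followed the same course at a lower level. It was at 3.43, 2.34 and 3.69 CPM in WT and at 0.651, 0.594 and 0.337 CPM in CDK12 KO, from 41 to 94 counts and from 6 to 16 counts. The groups were clearly separate, and CDK12 KO replicate 3 was the lowest library for HES4 as it was for HES1. The log2FC of HES4 was -2.45 (SE 0.250, adjusted p = 3.35e-10, edgeR), a 5.48-fold lower level. HEY1 (ENSG00000164683), a repressor of the related HEY group that is prominent in vascular and cardiac development, did not follow. Its WT libraries were at 10.2, 11.9 and 13.2 CPM and its CDK12 KO libraries at 15.2, 15.3 and 14.7 CPM. HEY1 rose with a log2FC of 0.38 (SE 0.0895, adjusted p = 3.86e-04, edgeR), and all its CDK12 KO libraries were above WT. Per kb of exon, HES1 led the targets in WT at 11.8 ± 1.27 CPM per kb, ahead of HES4 at 2.82 ± 0.643 and HEY1 at 2.15 ± 0.276 (SD, n = 3 each), which differed by about their spread. In CDK12 KO, HEY1 at 2.74 ± 0.0535 and HES1 at 2.44 ± 0.629 CPM per kb differed by less than their spread, and HES4 was at 0.472 ± 0.150 (SD, n = 3 each). For HEY1 the annotated exons together cover the whole gene, so its level per kb may be understated. Without division by length, HES1, HEY1 and HES4 averaged 24.3, 11.8 and 3.15 CPM in WT. In CDK12 KO they averaged 5.02, 15.1 and 0.528 CPM, so the order of the targets depended on the division by length.

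The promoters of HES1 and HES4 are shown because these were the down-regulated members; both hold letters that RBPJ binds, as do promoters of genes that did not fall. RefSeq promoter windows (build GRCh38.p14), from 250 bases before to 50 after the start of the gene, were at hand for 7 of the 10 genes, all but DLL1, DLL3 and HEY1. The stretch from 130 to 51 bases before the start is printed 5′ to 3′ on the strand of the gene, at chr3:194136018-194136097 (plus strand) for HES1 and chr1:1000148-1000227 (minus strand) for HES4, with the letters TGGGAA in capitals. Positions are counted from the RefSeq start, which for HES1 is the start in GENCODE 44. For HES4 the RefSeq start is at 1000097, 75 bases inside the GENCODE gene that begins at 1000172, so part of the HES4 stretch lies within that gene.
HES1: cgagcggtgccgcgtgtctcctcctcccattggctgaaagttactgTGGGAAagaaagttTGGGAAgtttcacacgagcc
HES4: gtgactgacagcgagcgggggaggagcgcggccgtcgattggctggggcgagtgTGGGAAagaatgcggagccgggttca

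HES1 held TGGGAA 2 times, starting 84 and 70 bases before the start and 14 bases apart, and HES4 held it 1 time, starting 76 bases before the RefSeq start and 1 base before the GENCODE start. The first match in HES1 and the match in HES4 were also matches to the longer GTGGGAA, which contains TGGGAA. Searched on both strands, TGGGAA and GTGGGAA were each found in 2 of the 7 windows, HES1 and HES4, against 24% and 6.25% of 35116 RefSeq windows. Among the other pathway genes, 52 of 61 had windows, 78 in all, and TGGGAA was found in any window of 14 genes and GTGGGAA of 6. These are counts of genes, some with several windows, and are not comparable to the shares per window above. The down-regulated genes DLK2, HES2, HES6, HES7 and NRARP held neither in their windows. GTGGGAA was found in HES5 and HEY2, which had 0 counts, and in HEYL, RBPJ, SPEN and CTBP2, none of which passed both thresholds. At the adjusted p alone, HEYL, RBPJ and CTBP2 fell, with log2FC values of -0.40, -0.16 and -0.24, and SPEN did not pass. Over all genes tested, 32.0% fell at that threshold. The N-box CACGAG, a letter string bound by HES proteins, was in the windows of HES1, NOTCH2 and NOTCH3, against 6.78% of all windows, and HES1 held it 2 times. The E-box CACGTG was in none of the 7 windows and in 7.26% of all windows. GC content of the 7 windows ranged from 59.0% for HES1 to 79.7% for JAG2, against a median of 58.7% over all windows. A match in letters describes the sequence and is not evidence of binding in these cells.

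Other genes of the pathway were examined in a list of 61 genes, grouped by role, of which 53 were tested. The list was drawn up with earlier results of these data known. Of the 53, KAT2B was up-regulated and 5 were down-regulated, DLK2, HES2, HES6, HES7 and NRARP. Over all genes tested, 8.30% were up-regulated and 7.73% down-regulated, 16.0% in either direction, so 6 of 53 was no larger a share. At the adjusted p alone, 14 rose and 20 fell, and these 34 of 53 were close to the 63.9% of all genes tested. The median log2FC was -0.03. Of the 6 called genes, 4 were relatives of the targets or NRARP: of the 5 tested genes in the group of HES and HEY relatives and NRARP, 4 were down-regulated and HEYL fell with a log2FC of -0.40 (adjusted p = 0.0108, edgeR). The other 3 of that group, HES3, HES5 and HEY2, had 0 counts in all 6 libraries, which allows a level of up to 0.10 to 0.270 CPM.

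NRARP, a small ankyrin repeat protein that is induced by Notch and dampens it, was at 6.97, 9.71 and 8.37 CPM in WT and at 2.48, 2.12 and 1.52 CPM in CDK12 KO. Its log2FC was -2.0 (SE 0.157, adjusted p = 6.95e-13, edgeR), close to that of HES1. HES6, which can act against HES1 and favours neuronal differentiation, was at 14.9, 12.4 and 14.4 CPM in WT and at 3.70, 4.09 and 3.43 CPM in CDK12 KO, a log2FC of -1.87 (SE 0.113, adjusted p = 1.00e-15, edgeR). A gene that opposes HES1 thus fell as HES1 did. HES7, the oscillating repressor of the somite clock, had 102, 92 and 32 counts in WT and 6, 6 and 0 counts in CDK12 KO. The ratio of its summed counts after scaling was 19.1-fold lower, with a 95% exact interval from counting error of 10.7 to 37.4 (edgeR log2FC -4.21, adjusted p = 2.92e-13). HES2 was at 2.74, 3.04 and 2.52 CPM in WT and 1.06, 1.00 and 1.35 CPM in CDK12 KO, a log2FC of -1.34 (adjusted p = 5.04e-07, edgeR). Together with the targets above, 8 HES, HEY and NRARP genes were tested, of which 7 fell and HEY1 rose at the adjusted p alone. Over all genes tested, 32.0% fell at that threshold and 63.9% moved in either direction.

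**Figure D2:**
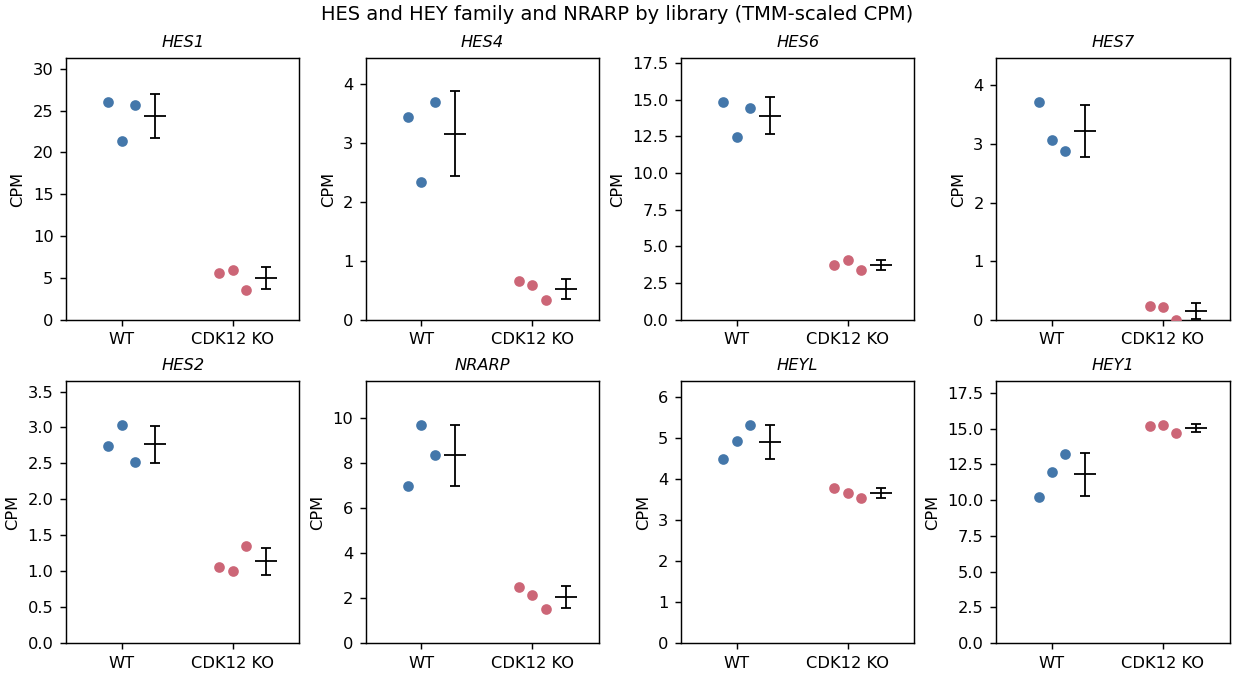
CPM (y axis, linear, from 0) of the 8 tested HES, HEY and NRARP genes in each WT and CDK12 KO library (points), with the mean and SD (n = 3). The groups were separate in all 8 panels, with CDK12 KO below WT in 7 of them and above it for HEY1. Over all genes tested, the groups were separate for 66.4%, with CDK12 KO below WT for 33.5%.

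Among genes that build and process the receptors and ligands, none passed both thresholds. The counts by role below are at the adjusted p alone and stand beside the same 63.9% of all genes tested, so they show nothing particular to a role. Of 9 genes of receptor cleavage (FURIN, the ADAM proteases and the γ-secretase subunits), 1 rose and 5 fell, none past the fold threshold, with log2FC values between -0.33 and 0.15. ADAM10, the main protease of ligand-induced cleavage, was at 135, 140 and 141 CPM in WT and 143, 131 and 144 CPM in CDK12 KO, and its groups overlapped (log2FC 0.0035, SE 0.0494, adjusted p = 0.956, edgeR). Of the fringe and O-glycosylation enzymes, which tune ligand choice, 4 were tested and 2 rose, RFNG with a log2FC of 0.38 and POGLUT1 with 0.15. All 3 tested ligases that ubiquitinate ligands changed: MIB1 fell from 134, 145 and 138 CPM in WT to 77.8, 69.8 and 75.7 CPM in CDK12 KO (log2FC -0.91, SE 0.0526, adjusted p = 3.29e-16, edgeR), NEURL1B fell and MIB2 rose. MIB1 is needed in ligand-sending cells for Delta-like and Jagged proteins to signal.

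In the nucleus, RBPJ had a log2FC of -0.16 (SE 0.0533, adjusted p = 0.00958, edgeR), with 111, 113 and 102 CPM in WT and 102, 91.2 and 100 CPM in CDK12 KO. Of the 9 nuclear activators, 3 rose and RBPJ fell. KAT2B, an acetyltransferase recruited by the Notch intracellular domain, stood out, with 7.88, 8.08 and 8.19 CPM in WT and 38.2, 35.4 and 37.3 CPM in CDK12 KO. Its log2FC was 2.20 (SE 0.0764, adjusted p = 2.46e-22, edgeR). Of the 12 corepressors, 3 rose and 5 fell, with log2FC values between -0.58 for HDAC1 and 0.38 for TLE3. Of the 8 tested genes of receptor turnover, 3 rose and ITCH fell. Among them DTX3L, a Deltex family ligase, had a log2FC of 0.98 (SE 0.0692, adjusted p = 5.71e-14, edgeR), and it passed the fold threshold without WT replicate 2, without CDK12 KO replicate 2, with upper-quartile normalization and with library totals alone, so that 2 genes of the list were then up-regulated.

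Of the other receptors and ligands, 3 were tested. NOTCH4 rose, with 2.15 ± 0.367 CPM in WT and 2.99 ± 0.163 CPM in CDK12 KO (SD, n = 3 each; log2FC 0.54, adjusted p = 0.00635, edgeR). DLL4 was at 1.52 ± 0.146 CPM in WT and 1.54 ± 0.362 CPM in CDK12 KO (SD, n = 3 each), and its groups overlapped. DLK2, an EGF-repeat protein related to the Delta-like ligands, fell from 5.84, 4.51 and 4.32 CPM in WT to 0.692, 0.631 and 0.618 CPM in CDK12 KO (log2FC -2.93, SE 0.203, adjusted p = 3.26e-14, edgeR). DLK2 overlaps ABCC10 on the opposite strand, which had a log2FC of -0.09.

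**Figure D3:**
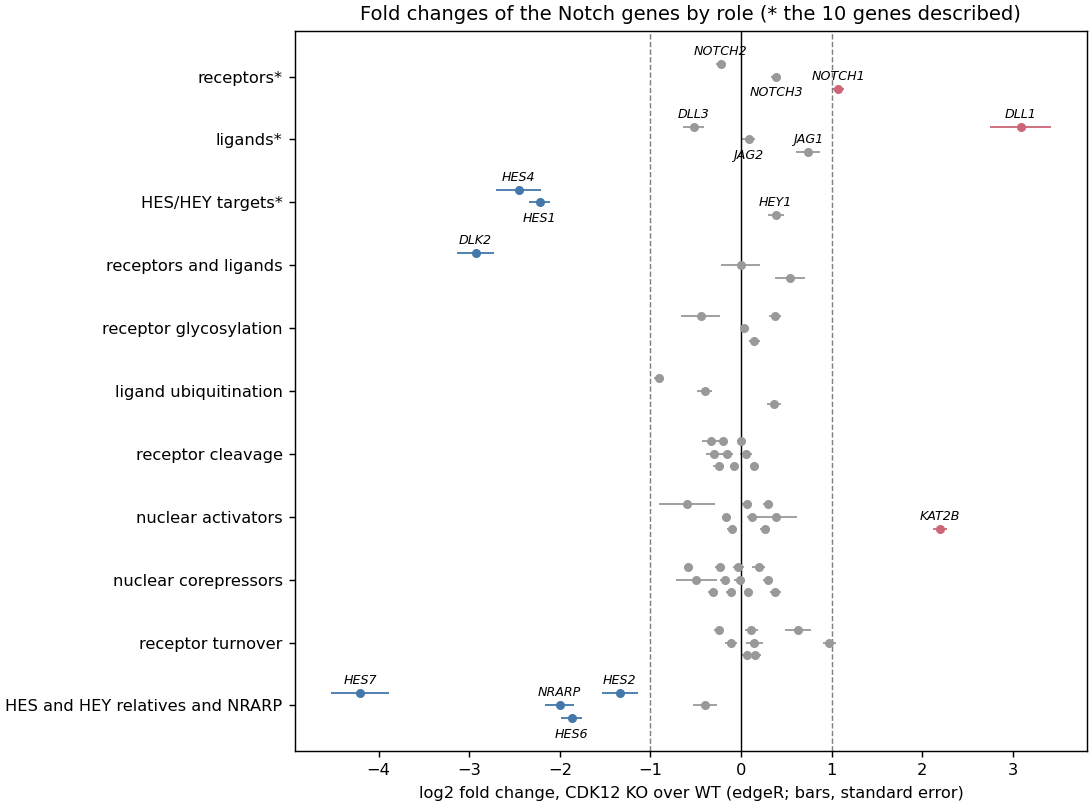
Log2FC, CDK12 KO over WT (x axis; points with SE, edgeR), for the 10 genes (starred rows) and the 53 tested pathway genes, by role (y axis); red, up-regulated, blue, down-regulated, grey, neither, and dashed lines mark 1 and -1. The blue points lie in the rows of HES and HEY genes, except DLK2. All points for receptor glycosylation, ligand ubiquitination, receptor cleavage, corepressors and receptor turnover lie between the dashed lines.

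The tested genes nearest to the 4 called members were compared with them. HES1 stood alone in its direction: its closest neighbours OPA1 and ATP13A3 had log2FC values of 0.10 and 0.13, TMEM44-AS1 had 0.39, and MB21D2, on the far side of OPA1, was up-regulated with 4.63 (adjusted p = 7.55e-17, edgeR). The neighbours of HES4 all fell, KLHL17 by 0.49, PLEKHN1 by 0.31, the interferon-induced ISG15 by 0.64 and AGRN by 0.64 on the log2 scale, each far less than HES4. Next to NOTCH1, the long non-coding RNA NALT1, which lies beside its start on the opposite strand, rose too, by 0.85 on the log2 scale (SE 0.162, adjusted p = 3.00e-05, edgeR). The other neighbours of NOTCH1, SEC16A, INPP5E and EGFL7, had log2FC values between -0.25 and 0.02. The neighbours of DLL1 were LINC00242 with 0.68, LINC00574 with 0.49, FAM120B with 0.16 and PSMB1 with -0.05, none past the fold threshold.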

How the data were processed

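The authors deposited raw counts per gene, made with FastQC, STAR on GRCh38 and HTSeq per the submitters' processing notes. Tool versions, annotation, strand setting and the treatment of multi-mapping reads are not given in the sources used here. Libraries were grouped by labelled genotype. No source says that they came from separate cultures, so p-values measure the spread between these libraries (biological coefficient of variation 4.35%), which may be technical. No library was a copy of another, as all pairs within a group exceeded counting noise (chi-square over its degrees of freedom, 1.65 to 6.42).

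Differences were tested with edgeR 4.0.16 in R 4.3.3 (filterByExpr, minimum count 10 and total 15, TMM, quasi-likelihood test, two-sided) and adjusted by Benjamini-Hochberg over 16198 genes. Positions and exon lengths came from GENCODE 44, which held 93.1% of the identifiers. Exact permutation tests used log2 CPM with 0.5 counts added. Intervals of count ratios are exact binomial (95%).

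Alternatives were voom/limma 3.58.1 (the tool in the paper's methods), DESeq2 1.42.0, other scalings and filters, the adjusted p alone and the omission of each library. Counts of 15917 genes were simulated for this comparison, with only 200 of them changed. There edgeR recovered 200 of 200 with 0 false calls, voom/limma 200 with 3 and DESeq2 200 with 0. The changed genes were well counted and were given folds past the threshold, so their recovery was nearly fixed by the setting. The simulation does not cover genes with few counts in a group, such as DLL1 and HES7, or folds near the threshold, such as that of NOTCH1. Recovery with as many genes moving as in these data, 63.9% at the adjusted p alone, was not tested. Named by rule were the 10 members, called pathway genes, 2 tested neighbours on each side of called members, CDK12 and markers; other genes were named after their values were seen. Members and lists were chosen with earlier results of these data known.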

Additional observations from a re-analysis of the deposited data

How the results depend on the processing

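No paired analysis was possible because the labels pair no WT library with a CDK12 KO library. Over 13 alternative settings, 127 of 128 fold changes of the 10 genes kept their direction and their side of the adjusted p; the exception was JAG2, whose log2 fold change lay between 0.012 and 0.16 with each library left out and passed without CDK12 KO replicate 3. With each library left out, 1 to 2 of the 10 genes were up-regulated (NOTCH1 was lost without WT replicate 1) and 1 to 2 of the other pathway genes, 2 without WT replicate 2 or CDK12 KO replicate 2. With upper-quartile normalization and with library totals alone, 2 other pathway genes were up-regulated. With at least 10 counts in every library, 568 genes were up-regulated and 684 down-regulated, 1 of the 10 genes each way; DLL1 and HES4 were then not tested. At the adjusted p alone, 5165 genes were higher and 5188 lower, 5 and 4 of the 10 genes, and 14 and 20 of the other pathway genes. Of 296 fold changes of the other named genes, 257 kept direction and side; that of SEC16A reversed to -0.017 without WT replicate 1 (range -0.017 to 0.046 with each library left out). The median log2 fold change of all genes was at most 0.0467 under any scaling. Counts of 2 to 6 for DLL1 in WT and 0 to 6 for HES7 in CDK12 KO limit the precision of their fold changes. Without exon length, the shares were 25.0% for NOTCH1 in CDK12 KO, 53.4% and 38.9% for NOTCH2 in WT and CDK12 KO, and 32.4% and 36.1% for NOTCH3.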

Other observations

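Basic helix-loop-helix factors that are known to work with or against HES proteins were looked up after the results above were seen. Among proneural factors of the nervous system, NEUROG1, NEUROG2, NEUROG3, NEUROD1 and ATOH1 had 0 counts in all 6 libraries, and ASCL2, NEUROD2 and ATOH8 had at most 2 counts in any library. These proneural genes were thus not detectable at this depth in either group. The E proteins, their partners, were expressed: TCF3 fell with a log2FC of -0.35 (adjusted p = 1.67e-07, edgeR), and TCF12 had -0.08 (adjusted p = 0.131, edgeR). TCF4, an E protein, was at 347, 347 and 331 CPM in WT and at 22.0, 19.6 and 20.8 CPM in CDK12 KO, 16.4-fold lower (log2FC -4.04, SE 0.0581, adjusted p = 4.00e-33, edgeR).

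The ID factors bind E proteins and keep them from DNA. ID4 had 505, 574 and 197 counts in WT and 2, 0 and 0 counts in CDK12 KO, at least 109-fold lower when the CDK12 KO group is set at the highest level that 3 counts give in its libraries. ID1 and ID2 rose with log2FC values of 0.27 and 0.23 (adjusted p = 2.26e-04 and 0.00281, edgeR), and ID3 had -0.09 (adjusted p = 0.130, edgeR). BHLHE40, a repressor related to the HES proteins, rose with a log2FC of 0.48 (adjusted p = 7.12e-09, edgeR).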
